A study of Rattus norvegicus with 12 samples.

Results

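The comparison is of the tissue that grew into 2 kinds of printed scaffold in a rat bone defect, across all genes: 3 libraries from PCL scaffolds against 3 from β-TCP scaffolds, which are 6 of the 12 libraries of the series. Libraries were taken by the group in their sample labels, and the 6 libraries of the Control group (defect left without a scaffold) and the Hydrogel group (printed GelMA, a gelatin-based gel) entered only the estimate of spread and, where said, as levels for reference. The animals were 8-week-old Sprague Dawley rats in which a hole was drilled into the lateral condyle of the distal femur, and the newly formed tissue was taken 2 weeks after the defect was made. PCL scaffolds were extruded from the molten polymer, and β-TCP scaffolds were printed from an ink of the ceramic powder with sodium alginate and Pluronics F-127 and then sintered. The methods speak in general of independent samples in each group, but the sources do not tie each library to a rat, so the p-values cover no more than the spread among these libraries, which may be technical.

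PCL, polycaprolactone, is a polyester that degrades slowly in the body, whereas β-TCP, beta-tricalcium phosphate, is a mineral ceramic that cells can dissolve. Osteoclasts, the large multinucleate cells that resorb bone, attach to mineral, pump protons onto it through the vacuolar ATPase and secrete proteases such as cathepsin K. Macrophages come from the same myeloid lineage, gather on implanted material and release chemokines that call in further leukocytes. The early healing tissue of a femur defect also borders on marrow, where red cell precursors, granulocytes and B cells are made.

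Fragments recovered from the deposited values gave a depth of 16230050 to 17357830 per library in the 6 libraries. The tissue label was bone, and transcripts of bone matrix were abundant: Col1a1, the main collagen chain of bone, was at 5370.3 to 8537 FPKM (fragment counts scaled by transcript length and by the mapped fragments of the library) in the 6 libraries. The β-TCP 2 and 3 libraries were nearly alike. When their recovered fragment counts were compared gene by gene, chi-square had a mean of 2.18 and a median of 0.719. For the 11 remaining pairs within a group, the means were 31.9 to 318.4 and the medians 2.62 to 27.6. Counting error alone gives a mean of 1. This comparison cannot tell separate samples from the same RNA prepared more than once. β-TCP 2 and 3 were kept as 2 libraries, as labelled. The counts over all genes, and of list members at the study's threshold, are also given with β-TCP 2 and 3 averaged as 1 library (averaged). They are given as well, for most lists, with β-TCP 1 set alone against PCL. The groups also differed in red cell RNA. The 6 hemoglobin genes made up 9.59%, 15.2% and 23.5% of all FPKM in PCL 1, 2 and 3, and 6.63%, 3.21% and 3.03% in β-TCP 1, 2 and 3.

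Of 12633 genes tested, 83 (0.657%) differed between PCL and β-TCP at an adjusted p under 0.05 (limma on log2(FPKM + 1), two-sided, Benjamini-Hochberg adjustment over all genes tested). PCL was lower for 72 of them (0.57% of genes tested) and higher for 11 (0.0871%). The threshold that the study used was an unadjusted p under 0.05 together with a fold over 2 or under 0.5, and by it the balance of directions was the other way round. There 566 genes (4.48%) passed, 422 (3.34%) with PCL higher and 144 (1.14%) with PCL lower. All 83 genes had PCL and β-TCP libraries that did not overlap, which was also the case for 2743 genes (21.7%) with PCL higher and 2933 genes (23.2%) with PCL lower.

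These counts changed with the libraries used, among them the nearly alike β-TCP 2 and 3. With those averaged as 1 library, 2 genes passed the adjusted p (S100a5 and LOC108352087, both lower in PCL, adjusted p = 0.0208 each), 1528 passed an unadjusted p of 0.05, and 319 passed the study's threshold, 193 (1.53%) higher and 126 (0.997%) lower. With β-TCP 1 alone against the 3 PCL libraries, 2 genes passed the adjusted p, neither of them among the 83, and the study's threshold gave 58 genes (0.459%) higher and 122 (0.966%) lower. Leaving out single libraries gave 17, 11 and 7 genes at the adjusted p without PCL 1, 2 and 3, and 47, 6 and 2 without β-TCP 1, 2 and 3. At the study's threshold the count was 179 without PCL 3, 330 without β-TCP 2 and 309 without β-TCP 3. Libraries outside the comparison also set the count through the shared spread, with 1912 genes without Control 3 and 221 without Hydrogel 3, 24 and 37 without Control 1 and 2, and 20 without Hydrogel 1. All 83 genes kept their direction in the settings listed in this paragraph. Since their PCL and β-TCP libraries do not overlap, these settings could not turn it, so this adds no support for the direction. Genes outside the 83 can turn direction with the β-TCP library used.

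**Figure D1:**
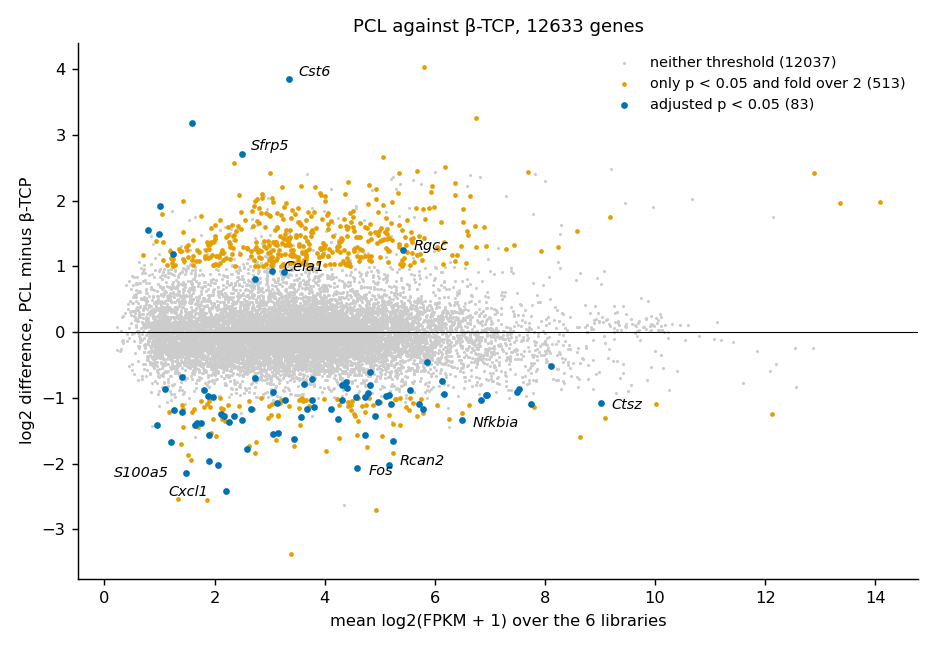
Each point is 1 of 12633 genes, with the mean log2(FPKM + 1) over the 3 PCL and 3 β-TCP libraries on the x axis and the log2 difference PCL minus β-TCP on the y axis. The 83 genes at an adjusted p under 0.05 (blue) lie mostly below 0, 72 of 83, whereas of the 566 genes at an unadjusted p under 0.05 and a fold over 2 (orange, and blue where both hold) 422 lie above 0.

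In 68 of the 72 genes lower in PCL, the 3 β-TCP libraries were above all 9 other libraries, PCL, Control and Hydrogel, and in 1 of the 72 the 3 PCL libraries were below all 9 others. For the 11 genes higher in PCL, the 3 PCL libraries were above the 9 others in 7 genes and the β-TCP libraries below the 9 others in 5.

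Several immediate early genes, which encode transcription factors and secreted proteins that cells induce soon after a stimulus, were lower in PCL. Over all genes tested, 0.57% were lower at the adjusted p and 1.14% at the study's threshold. Of 32 list members tested, 5 were lower at the adjusted p and none higher, and 6 were lower at the study's threshold (5 with β-TCP 2 and 3 averaged, 5 against β-TCP 1 alone). Fos, a subunit of the AP-1 transcription factor, was at 14.7, 10.2 and 8.34 FPKM in PCL 1, 2 and 3 and at 45.7, 49.2 and 50.3 FPKM in β-TCP 1, 2 and 3. Every β-TCP library was thus about as high as the next, and all were above the Control and Hydrogel libraries, whose range was 6.86 to 25.8 FPKM. The log2 difference was -2.06 ± 0.38 (SE, n = 3 and 3 libraries, limma adjusted p = 0.0476), and it was -1.99 against β-TCP 1 alone.

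Maff, a small Maf protein that dimerizes with other basic leucine zipper factors, was at 4.62, 4.66 and 3.46 FPKM in PCL and 13.9, 13.8 and 14.6 FPKM in β-TCP, a log2 difference of -1.53 ± 0.19 (SE, limma adjusted p = 0.012). Egr1, a zinc finger factor of the same early response, was at 22.6, 18.1 and 15.3 FPKM in PCL and 51.3, 44.7 and 42.7 FPKM in β-TCP. The Control libraries reached 38 FPKM for Egr1, so β-TCP stood above the other groups by less for this gene than for Maff. Junb, another AP-1 subunit, went from 29.5 to 44.7 FPKM in PCL and from 73.3 to 89 FPKM in β-TCP. Cyr61, a matricellular protein of the CCN family, was at 14.8 to 27.4 FPKM in PCL and 57.8 to 72.4 FPKM in β-TCP, but Control 3 was above both at 78.7 FPKM. The log2 differences of Egr1, Junb and Cyr61 were -1.28, -1.18 and -1.66. The list as a whole had a median log2 difference of -0.36, against -0.04 over all genes tested, with 10 of its 32 members above 0. It was -0.13 against β-TCP 1 and -0.48 against β-TCP 2 and 3. PCL libraries were below all β-TCP libraries in 14 members and above them all in 6 (23.2% and 21.7% of all genes tested).

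Nfkbia, the inhibitor that holds NF-κB in the cytoplasm and is itself induced by NF-κB, was at 65.4, 57.4 and 45.7 FPKM in PCL and 137, 148 and 141 FPKM in β-TCP (log2 difference -1.33 ± 0.18 SE, limma adjusted p = 0.0197). It was the only member of the 28 tested genes of interleukin 1 and inflammatory cytokines to pass the adjusted p. The share of all genes tested that was lower in PCL was 0.57% at the adjusted p and 1.14% at the study's threshold. At the study's threshold 4 of the 28 were lower in PCL and none higher (4 with β-TCP 2 and 3 averaged, 2 lower and 1 higher against β-TCP 1 alone, 2 lower without PCL 3, 7 members in all without PCL 1 or without β-TCP 1). Icam1, an adhesion molecule to which leukocytes bind on activated endothelium, was at 14.7 to 20 FPKM in PCL and 31.9 to 40.6 FPKM in β-TCP, and it passed the adjusted p (0.0496) at a log2 difference of -0.99 ± 0.19 (SE).

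Some chemokines, small secreted proteins that attract leukocytes, were also lower in PCL. Cxcl1, a neutrophil attractant, was at 0.705, 0.679 and 1.81 FPKM in PCL and 5.99, 11.2 and 13.4 FPKM in β-TCP, and the Control and Hydrogel libraries lay between 0.143 and 4.52 FPKM. Its log2 difference of -2.42 ± 0.40 (SE, limma adjusted p = 0.0362) was the lowest of the 83 genes. Ccl20, which acts on CCR6 of dendritic cells and lymphocytes, was at 0.0682, 0 and 0.55 FPKM in PCL and 1.41, 1.97 and 3.45 FPKM in β-TCP (-1.42 ± 0.24 SE, limma adjusted p = 0.0379). Ccl12, a monocyte attractant, was at 0.669 to 1.49 FPKM in PCL and at 4.25, 10.5 and 8.85 FPKM in β-TCP 1, 2 and 3. In all 3 genes β-TCP 1 was the lowest of its group and still above every PCL library.

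Among 18 tested CC chemokines and receptors, 2 were lower in PCL at the adjusted p and 5 at the study's threshold (4 with β-TCP 2 and 3 averaged, 2 against β-TCP 1 alone, 4 without PCL 3), with none higher. Of all genes tested, 0.57% were lower at the adjusted p and 1.14% at the study's threshold. The median log2 difference of the CC list was -0.68, and it was -0.90 against β-TCP 2 and 3 but -0.20 against β-TCP 1. PCL libraries were below all β-TCP libraries in 10 members and above them all in 2 (23.2% and 21.7% of all genes tested). The summed CC list overlapped between the groups. It was 0.1325%, 0.1349% and 0.1088% of all FPKM in PCL and 0.1055%, 0.1422% and 0.1403% in β-TCP 1, 2 and 3. Among 19 tested CXC chemokines and receptors, 1 was lower at the adjusted p and 4 at the study's threshold (3 averaged, 1 against β-TCP 1 alone, 4 without PCL 3). The CXC list had a median of -0.32, with -0.085 against β-TCP 1 and -0.27 against β-TCP 2 and 3. In 5 of its members PCL libraries were below all β-TCP libraries and in 2 above them all, and the highest log2 difference was 2.40. Ccl2 and Ccl7, both monocyte attractants, did not pass the adjusted p (limma adjusted p = 0.0662 and 0.0872). Ccl2 was at 17, 15.4 and 10.04 FPKM in PCL and 28.7, 65.2 and 62.8 FPKM in β-TCP. Ccl7 was at 4.0, 3.0 and 1.19 FPKM in PCL and 6.35, 15.9 and 15.4 FPKM in β-TCP.

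The promoters of the 3 genes lower in PCL that held a κB motif, the letter pattern bound by NF-κB, are shown because Nfkbia, Cxcl1 and Ccl20 are known targets of that factor. They are RefSeq sequences of the rat assembly GRCr8, 5′ to 3′ on the gene's strand, cut to the bases around the κB match, which is in capitals. The Nfkbia stretch runs up to the base before the transcription start, and the Cxcl1 and Ccl20 stretches stop short of it.
Cxcl1 (chr14:17479336-17479483, minus strand): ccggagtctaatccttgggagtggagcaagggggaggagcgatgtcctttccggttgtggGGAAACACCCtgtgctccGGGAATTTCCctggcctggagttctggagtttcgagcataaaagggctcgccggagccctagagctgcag
Nfkbia (chr6:78597073-78597163, minus strand): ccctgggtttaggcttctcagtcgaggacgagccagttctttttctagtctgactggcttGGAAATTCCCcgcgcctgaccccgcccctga
Ccl20 (chr9:91837010-91837139, plus strand): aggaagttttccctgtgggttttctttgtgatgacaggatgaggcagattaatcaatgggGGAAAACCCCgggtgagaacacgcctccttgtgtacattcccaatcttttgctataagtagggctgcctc
The κB consensus was searched on both strands over the 250 bases before the start. Cxcl1 held 2 matches that do not overlap, with their last bases 93 and 75 bases before the start, Nfkbia 1 at 22 and Ccl20 1 at 80. Of the 72 genes lower in PCL at the adjusted p, 53 matched a promoter in the table by symbol and 3 of those held the motif, as did 1.3% of all 33469 promoters of that length. An AP-1 pattern, TGANTCA, was in 4 of the 53 promoters, against 6.34% of all promoters. These matches are descriptions of sequence, and no binding was measured.

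**Figure D2:**
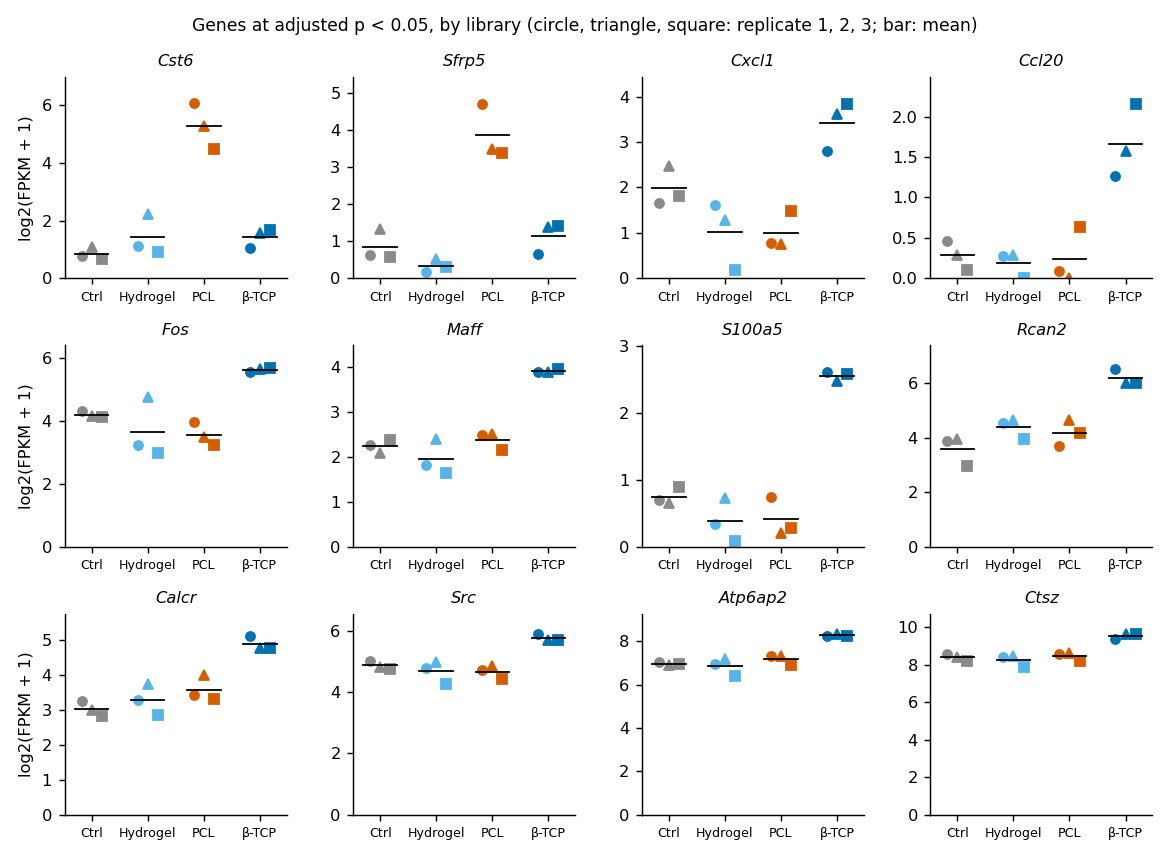
Levels of 12 genes that passed the adjusted p of 0.05 are plotted by library as log2(FPKM + 1), with circle, triangle and square for replicates 1, 2 and 3 of each group and a bar at the mean of the 3 log2 values. The 3 β-TCP points of the 10 genes lower in PCL lie above all other points in their panels, and the 3 PCL points of Cst6 and Sfrp5 lie above all others.

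Osteoclast genes lay lower in PCL than in each β-TCP library. Of 19 tested, 18 had PCL libraries below all β-TCP libraries (23.2% of all genes tested), 2 passed the adjusted p and 7 the study's threshold (8 with β-TCP 2 and 3 averaged, 10 against β-TCP 1 alone, 4 without PCL 3). Of all genes tested, 0.57% were lower at the adjusted p and 1.14% at the study's threshold. The median log2 difference of the list was -0.93, and it was -1.04 against β-TCP 1 and -0.87 against β-TCP 2 and 3. Calcr, the calcitonin receptor that marks mature osteoclasts, was at 9.73, 14.9 and 8.91 FPKM in PCL and 33.8, 26.4 and 26.5 FPKM in β-TCP (log2 difference -1.32 ± 0.24 SE, limma adjusted p = 0.0476). Src, the kinase that osteoclasts need to form their ruffled border, was at 25.4, 27.8 and 20.6 FPKM in PCL and 57.8, 50.5 and 50.9 FPKM in β-TCP (-1.09 ± 0.18 SE, limma adjusted p = 0.0362). In both genes the Control and Hydrogel libraries lay in or near the range of PCL, from 6.08 to 12.3 FPKM for Calcr and from 18.3 to 31.5 FPKM for Src.

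The best known osteoclast genes showed the same separation without passing the adjusted p. Ctsk, cathepsin K, was at 3074, 3418 and 2359 FPKM in PCL and 6920, 6883 and 6866 FPKM in β-TCP (-1.24 ± 0.29 SE, limma adjusted p = 0.0853). Acp5, tartrate-resistant acid phosphatase, was at 703.3, 882 and 575 FPKM in PCL and 1534, 1503 and 1525 FPKM in β-TCP (limma adjusted p = 0.0986). Tnfrsf11a, the receptor RANK through which RANKL drives osteoclast formation, was at 10.7 to 16.3 FPKM in PCL and 31.6 to 35.4 FPKM in β-TCP. The single list member with PCL higher at the study's threshold was Car2, carbonic anhydrase 2, at 664, 1005 and 1758 FPKM in PCL and 508, 249.8 and 245 FPKM in β-TCP, a gene that red cell precursors express as well. In bulk tissue, fewer cells of a type and less RNA per cell cannot be told apart, here and in each cell type named below.

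Subunits of the vacuolar ATPase, which acidifies lysosomes and the space under osteoclasts, had 4 of 19 tested members lower at the adjusted p (0.57% of all genes tested), and 17 of 19 had PCL libraries below all β-TCP libraries (23.2% of all). Atp6ap2, an accessory subunit, was at 161, 162 and 118 FPKM in PCL and 307, 323 and 304 FPKM in β-TCP (-1.09 ± 0.19 SE, limma adjusted p = 0.0438). Atp6v0b, of the membrane sector, was at 117 to 145 FPKM in PCL and 239 to 255 FPKM in β-TCP. Atp6v1e1 and Atp6v1h, both of the cytosolic sector, were at 125 to 149 and at 41.5 to 58.2 FPKM in PCL and at 245 to 250.1 and at 93.7 to 107 FPKM in β-TCP. The log2 differences of these 3 were -0.92, -0.87 and -0.95, so they were under 2-fold, and at the study's threshold 1 member passed (2 averaged, 3 against β-TCP 1 alone, 3 without PCL 1 or without PCL 2, 2 without β-TCP 2 or without β-TCP 3, none without PCL 3). Atp6v0d2, the isoform of the membrane sector that osteoclasts use, was at 126, 131 and 89.1 FPKM in PCL and 239, 219.9 and 225 FPKM in β-TCP (limma adjusted p = 0.104). At the study's threshold 1.14% of all genes tested were lower in PCL, and the list median was -0.78.

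Lysosomal enzymes and membrane proteins gave 2 members lower of 45 at the adjusted p (0.57% of all genes tested, 1.14% at the study's threshold). In 30 of 45 the PCL libraries were below all β-TCP libraries (23.2% of all), and the median log2 difference was -0.57. Gla, alpha-galactosidase A, was at 41.3, 38.3 and 26.8 FPKM in PCL and 72.8, 79.1 and 75.7 FPKM in β-TCP (-1.10 ± 0.21 SE, limma adjusted p = 0.0476). Ctsz, cathepsin Z, was at 383, 391 and 294 FPKM in PCL and 657, 792 and 808 FPKM in β-TCP (-1.08 ± 0.19 SE, limma adjusted p = 0.0386). Both genes were also those that passed the study's threshold (2 with β-TCP 2 and 3 averaged, 1 lower and 1 higher against β-TCP 1 alone, 4 without β-TCP 1, none without PCL 3).

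Macrophage genes differed from those of osteoclasts in how β-TCP 1 stood. Of 28 tested, 3 were lower in PCL at the adjusted p and 8 at the study's threshold with 1 higher (6 lower and none higher averaged, 1 lower and 1 higher against β-TCP 1 alone, 6 lower without PCL 3). Of all genes tested, 0.57% were lower at the adjusted p, and 1.14% were lower and 3.34% higher at the study's threshold. The median log2 difference of the list was -0.56, but it was -0.87 against β-TCP 2 and 3 and -0.16 against β-TCP 1. PCL libraries were below all β-TCP libraries in 14 members and above them all in 3 (23.2% and 21.7% of all genes tested). The log2 difference was above 0 in 5 of the 28, the highest at 1.09. C1qb and C1qc, chains of the complement recognition protein C1q that macrophages make, were at 72.2 to 88.1 and 82.5 to 88.5 FPKM in PCL. In β-TCP 1, 2 and 3 they were at 125, 185 and 186 FPKM (C1qb) and at 131, 197 and 184 FPKM (C1qc), so β-TCP 1 lay between PCL and the other two. Their log2 differences were -1.04 ± 0.18 and -0.96 ± 0.16 (SE, limma adjusted p = 0.0386 for both). Vsig4, a complement receptor of resident macrophages, was at 1.1, 1.06 and 0.555 FPKM in PCL and 3.25, 7.81 and 9.64 FPKM in β-TCP (-1.96 ± 0.31 SE, limma adjusted p = 0.0346).

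Adgre1, which encodes the macrophage marker F4/80, was at 22.5, 23.3 and 21 FPKM in PCL and 30.2, 71.8 and 74.7 FPKM in β-TCP, and Msr1, a scavenger receptor, at 12.7 to 13.1 FPKM in PCL and 17.1, 60.3 and 62.4 FPKM in β-TCP. Cd68, a lysosomal glycoprotein of macrophages and osteoclasts, was at 363, 315 and 237 FPKM in PCL and 389, 527 and 544 FPKM in β-TCP. None of these 3 passed the adjusted p. The summed macrophage list made up 2.28%, 1.87% and 1.51% of all FPKM in PCL, and 1.64%, 3.93% and 3.95% in β-TCP, so β-TCP 1 was within the PCL range by this sum. The summed osteoclast list made up 1.21%, 1.30% and 0.974% in PCL and 2.43%, 2.32% and 2.33% in β-TCP, with no overlap. Complement genes, which share Vsig4, C1qb and C1qc with the macrophage list, had those 3 of 23 lower at the adjusted p (0.57% of all genes tested). Their median was -0.28, and it was -0.004 against β-TCP 1 and -0.27 against β-TCP 2 and 3. At the study's threshold 2 members were lower and 2 higher (1 and 1 with β-TCP 2 and 3 averaged or without PCL 3). Of all genes tested, 1.14% were lower and 3.34% higher at that threshold. PCL libraries were below all β-TCP libraries in 8 members and above them all in 6 (23.2% and 21.7% of all genes tested).

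Other genes lower in PCL belonged to none of the groups above. Rcan2, a regulator of the phosphatase calcineurin, was at 11.8, 24 and 16.8 FPKM in PCL and 91.6, 62.7 and 63.7 FPKM in β-TCP (-2.02 ± 0.32 SE, limma adjusted p = 0.0346). Its paralog Rcan1 was at 23.7 to 34.1 FPKM in PCL and 63.1 to 76.8 FPKM in β-TCP and fell short of the threshold (limma adjusted p = 0.0512). S100a5, a calcium-binding protein, was at 0.676, 0.15 and 0.209 FPKM in PCL and 5.11, 4.55 and 4.99 FPKM in β-TCP (-2.15 ± 0.19 SE, limma adjusted p = 0.00281). S100a5 and LOC108352087, which was at 0.735 to 1.06 FPKM in PCL and 3.67 to 4.92 FPKM in β-TCP, were the 2 genes that still passed with β-TCP 2 and 3 averaged.

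Bmp2, a bone morphogenetic protein that induces osteoblast differentiation, was at 3.28, 3.09 and 1.6 FPKM in PCL and 8.34, 7.82 and 7.94 FPKM in β-TCP (-1.34 ± 0.24 SE, limma adjusted p = 0.044), and Control 3 reached 7.1 FPKM. Porcn, the acyltransferase that makes Wnt proteins competent for secretion, was at 5.79 to 7.75 FPKM in PCL and 16.9 to 18.3 FPKM in β-TCP (limma adjusted p = 0.0386). Spry4, a feedback inhibitor of receptor tyrosine kinase signalling, and Etv4, an ETS factor downstream of it, were at 1.27 to 1.89 and 0.466 to 0.713 FPKM in PCL. In β-TCP, Spry4 was at 3.37 to 4.28 FPKM and Etv4 at 2.3 to 3.27 FPKM. Gdf15, a stress-induced cytokine of the TGF-β family, was at 4.3 to 6.21 FPKM in PCL and 10.5 to 13.9 FPKM in β-TCP. Insig1, which holds the sterol sensor SCAP in the endoplasmic reticulum, was at 18.3 to 23.2 FPKM in PCL and 41.9 to 47.5 FPKM in β-TCP. Their log2 differences of -0.88 (Spry4), -1.19 (Etv4), -1.07 (Gdf15) and -1.06 (Insig1) all passed the adjusted p of 0.05.

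The rest of the largest decreases were in genes of varied function. Rnd1, a small GTPase, was at 1.76 to 3.2 FPKM in PCL and 9.62 to 10.7 FPKM in β-TCP, a log2 difference of -1.78. Pcsk1, a prohormone convertase, was at 11.01 to 16.9 FPKM in PCL and 42.3 to 49.5 FPKM in β-TCP, and Slc6a12, a betaine and GABA transporter, at 2.41 to 6.27 FPKM in PCL and 13 to 13.6 FPKM in β-TCP. Mfap3l, at 3.45 to 8.24 FPKM in PCL and 17 to 20.3 FPKM in β-TCP, Lad1, at 0.893 to 1.67 and 5.09 to 5.99 FPKM, and Cym, chymosin, at 0.714 to 1.19 and 3.53 to 4.59 FPKM, had differences of -1.63, -1.57 and -1.38. In the β-TCP group these 6 genes varied by less than 1.5-fold between libraries.

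The increases at the adjusted p were few, and 3 of the 11 were loci with no gene name. Cst6, cystatin M/E, an inhibitor of cysteine proteases that include lysosomal cathepsins, was at 65.9, 38 and 21.1 FPKM in PCL and 1.06, 1.99 and 2.17 FPKM in β-TCP. Control and Hydrogel libraries were at 0.588 to 3.73 FPKM, so Cst6 was set apart by PCL. The log2 difference was 3.84 ± 0.42 (SE, limma adjusted p = 0.00748). Sfrp5, a secreted antagonist of Wnt ligands, was at 24.9, 10.3 and 9.45 FPKM in PCL and 0.562, 1.61 and 1.67 FPKM in β-TCP, with 0.121 to 1.49 FPKM in the other groups (2.71 ± 0.35 SE, limma adjusted p = 0.0159).

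Gpr143, a receptor known from pigment cell organelles, was at 3.49, 2.43 and 1.38 FPKM in PCL and at most 0.375 FPKM in the other 9 libraries. Cela1, an elastase, was at 12.6, 9.11 and 9.8 FPKM in PCL and 4.36, 5.12 and 5.63 FPKM in β-TCP, and both groups were above the 1.12 to 1.92 FPKM of the other libraries. Cd300ld, a myeloid receptor of the CD300 family, was at 3.75, 2.59 and 2.55 FPKM in PCL and 0, 0.136 and 0 FPKM in β-TCP, but Control 1 was at 2.23 FPKM. The locus RGD1562156 was at 9.76, 6.71 and 7.87 FPKM in PCL, was listed at 0 in all β-TCP libraries, and was at 0.217 to 2.8 FPKM in the others. Rgcc, a regulator of the cell cycle, was at 47.9, 58.8 and 98 FPKM in PCL and 30.6, 23.9 and 26.6 FPKM in β-TCP, Pcyt1b, a phosphatidylcholine synthesis enzyme, at 1.37 to 3.97 and 0.534 to 0.583 FPKM, and Tor3a, a torsin ATPase, at 10.7 to 13.2 and 5.58 to 6.6 FPKM. The log2 differences of Gpr143, Cela1, Cd300ld, Rgcc, Pcyt1b and Tor3a were 1.49, 0.92, 1.91, 1.25, 1.18 and 0.91. Sctr, the secretin receptor, missed the adjusted p (0.0609) at 13.5 to 21.2 FPKM in PCL and 0.328, 5.25 and 4.04 FPKM in β-TCP.

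Red cell precursors and dividing cells gave the lists with the highest medians. Of 44 tested genes of erythroid cells, 26 were higher in PCL by the study's threshold (3.34% of all genes tested) and none lower. Of the 44, 42 had PCL libraries above all β-TCP libraries (21.7% of all genes tested), and none passed the adjusted p. The median log2 difference was 2.08, with 1.31 against β-TCP 1 and 2.45 against β-TCP 2 and 3. The count rested on few libraries: 7 with β-TCP 2 and 3 averaged, 0 against β-TCP 1 alone, 2 without PCL 3, 14 without PCL 2 and 6 without β-TCP 2 or without β-TCP 3. Hba1, an alpha globin gene, was at 21074, 33972 and 58206 FPKM in PCL and 14468, 7188 and 6472 FPKM in β-TCP (1.98 ± 0.87 SE, limma adjusted p = 0.214).

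Other erythroid genes gave the same order of libraries, PCL 3 at the top and β-TCP 2 and 3 at the bottom. Alas2, which catalyzes the first step of heme synthesis in red cells, was at 208, 288 and 546 FPKM in PCL and 140.5, 54.2 and 55.4 FPKM in β-TCP. Klf1, the transcription factor of the erythroid lineage, was at 67.3, 118 and 213 FPKM in PCL and 36.2, 15.4 and 16.6 FPKM in β-TCP. Erfe, the hormone by which red cell precursors lower hepcidin, was at 6.13, 10.5 and 16.2 FPKM in PCL and 2.46, 1.42 and 1.23 FPKM in β-TCP (limma adjusted p = 0.0909). The erythroid list made up 10.5% to 25.6% of all FPKM in PCL and 3.31% to 7.25% in β-TCP, and the 6 Control and Hydrogel libraries ran from 1.05% to 17.8%, so that PCL 3 alone lay above them and no β-TCP library below them all. Hemoglobin alone took 0.957% of FPKM in Control 3 and 16.6% in Hydrogel 3.

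All 48 tested genes of the mitotic cell cycle had PCL libraries above all β-TCP libraries (21.7% of all genes tested), with 38 past the study's threshold (7 averaged, 0 against β-TCP 1 alone, 1 without PCL 3, 9 without β-TCP 2, 6 without β-TCP 3) and 0 at the adjusted p. Of all genes tested, 3.34% were higher in PCL at the study's threshold. The median of the mitotic list was 1.35, with 0.82 against β-TCP 1 and 1.58 against β-TCP 2 and 3. Its sum was 0.274% to 0.394% of all FPKM in PCL and 0.103% to 0.184% in β-TCP. Control libraries were at 0.221%, 0.386% and 0.0750% and Hydrogel libraries at 0.343%, 0.276% and 0.496%, so PCL and β-TCP both lay within their range. Mki67, the proliferation antigen Ki-67, was at 70.2, 85.4 and 147 FPKM in PCL and 43.2, 19 and 19.3 FPKM in β-TCP (1.89 ± 0.76 SE, limma adjusted p = 0.19). Cdk1, the kinase that drives entry into mitosis, was at 64.8, 54.5 and 89.5 FPKM in PCL and 41.2, 23.3 and 24.7 FPKM in β-TCP, and Cdc20, an activator of the anaphase-promoting complex, at 39, 39.4 and 66.7 FPKM in PCL and 21.5, 13.8 and 13.4 FPKM in β-TCP. DNA replication and repair genes gave 56 of 56 with PCL libraries above all β-TCP libraries (21.7% of all genes tested) and 36 past the study's threshold (22 averaged, 0 against β-TCP 1 alone, 15 without PCL 3, 22 without β-TCP 2 or without β-TCP 3), with a median of 1.24. Pcna, the sliding clamp of DNA polymerase, was at 197, 212 and 340.5 FPKM in PCL and 129, 86.5 and 91.8 FPKM in β-TCP. The summed replication list was 0.333% to 0.475% of all FPKM in PCL and 0.141% to 0.219% in β-TCP. Control and Hydrogel libraries ran from 0.115% to 0.534%. Hemoglobin, like both lists, was higher in every PCL library than in any β-TCP library. In PCL 1, 2 and 3 hemoglobin was at 9.59%, 15.2% and 23.5% and the mitotic sum at 0.282%, 0.274% and 0.394%. The part of red cell precursors in the proliferation genes was not tested.

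The promoters of Cdc20 and Cdk1 are shown because cell cycle genes are known for paired CCAAT boxes, bound by NF-Y, with the CHR element TTTGAA, bound by the DREAM and MuvB complexes. Capitals mark both motifs (ATTGG is CCAAT on the other strand), in RefSeq GRCr8 sequence cut around the matches. The Cdk1 stretch runs up to the base before the start, and that of Cdc20 stops short of it.
Cdc20 (chr5:137255806-137255915, minus strand): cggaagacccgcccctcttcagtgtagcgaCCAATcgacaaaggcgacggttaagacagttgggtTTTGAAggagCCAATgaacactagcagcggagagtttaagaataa
Cdk1 (chr20:19265053-19265292, plus strand): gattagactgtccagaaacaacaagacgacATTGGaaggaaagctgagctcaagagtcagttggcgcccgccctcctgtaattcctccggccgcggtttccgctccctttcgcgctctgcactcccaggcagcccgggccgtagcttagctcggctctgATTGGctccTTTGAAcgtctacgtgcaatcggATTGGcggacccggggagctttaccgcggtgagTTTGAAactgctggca
Over the 250 bases before the start, both strands read and overlaps between motifs allowed, CCAAT was in 32 of 42 promoters of the mitotic list and TTTGAA in 20, against 34.02% and 16.2% of all promoters. CCAAT was also in 23 of 44 promoters of the replication list and 17 of 30 of the erythroid list, and TTTGAA in 4 and 4. In erythroid genes the AGATAA pattern, known to bind the factor GATA-1, was in 9 of 30 promoters, against 10.3% of all.

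**Figure D3:**
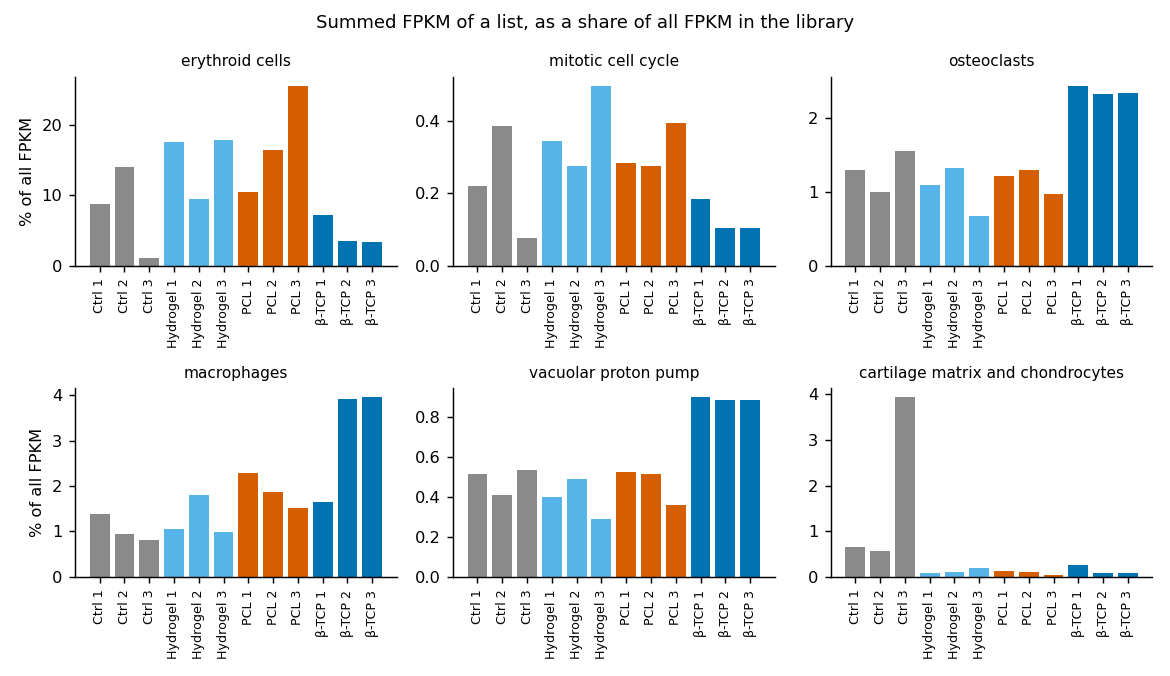
Bars give the summed FPKM of a gene list as a percent of all FPKM in each of the 12 libraries, from 0. Erythroid and mitotic genes are highest in PCL 3 among the 6 scaffold libraries compared and lowest in β-TCP 2 and 3, the osteoclast and proton pump lists are higher in all 3 β-TCP libraries than in any PCL library, and macrophage genes are high in β-TCP 2 and 3 but not in β-TCP 1.

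Other marrow cells showed differences that did not pass the adjusted p. B cell genes had a median log2 difference of 1.001 with 0 of 26 past either threshold and 5 with PCL libraries above all β-TCP libraries, a share below the 21.7% of all genes tested. The B cell median was 0.35 against β-TCP 1 and 1.29 against β-TCP 2 and 3. By the summed list PCL 1 was highest of the 6, at 0.195% of all FPKM, and the other PCL and β-TCP libraries lay between 0.0421% and 0.0794%. Control 2 at 0.318% and the 3 Hydrogel libraries at 0.202% to 0.398% were above PCL 1. At the study's threshold 3.34% of all genes tested were higher in PCL. Neutrophil granule genes had 2 of 26 higher in PCL at the study's threshold (1 averaged, 0 against β-TCP 1 alone, 0 without PCL 2 or without PCL 3, 1 without β-TCP 1, 2 or 3) and a median of 0.87. The neutrophil median was 0.44 against β-TCP 1 and 1.27 against β-TCP 2 and 3. S100a9, a granule protein of neutrophils, was at 940.3, 2621 and 2968 FPKM in PCL and 647, 470.0 and 457 FPKM in β-TCP (1.90 ± 1.31 SE, limma adjusted p = 0.393). Control and Hydrogel libraries ran from 19.1 to 2078 FPKM for S100a9. Olfm4, another granule protein, was at 8.96 to 13.2 FPKM in PCL and 0.879 to 1.29 FPKM in β-TCP (limma adjusted p = 0.115). Eosinophil and mast cell genes had 2 of 17 higher at the study's threshold (1 averaged, 0 against β-TCP 1 alone, 0 without PCL 3). Alox15, a lipoxygenase of rat eosinophils and macrophages, was at 84.7, 514 and 836 FPKM in PCL and 61.3, 24.5 and 25.7 FPKM in β-TCP (3.25 ± 1.14 SE, limma adjusted p = 0.156).

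Matrix genes leaned the other way. Of 32 fibrillar collagens and crosslinking enzymes, 19 had PCL libraries below all β-TCP libraries, against 23.2% of all genes tested, and the median was -0.53. The share of all genes tested that was lower at the study's threshold was 1.14%. At the study's threshold 1 was lower (0 averaged, 1 higher and none lower against β-TCP 1 alone, 0 without PCL 3). Of 25 genes of basement membrane and endothelium, 17 had PCL libraries below all β-TCP libraries (23.2% of all genes tested), with a median of -0.51 and none past a threshold. Col4a1, a basement membrane collagen, was at 67.9, 65.3 and 48.7 FPKM in PCL and 85.9, 138 and 139 FPKM in β-TCP. The bone genes Col1a1 and Sparc differed by less than the standard error (log2 difference -0.24 ± 0.32 and -0.25 ± 0.35 SE, limma adjusted p = 0.657 and 0.682). Runx2, the transcription factor of osteoblasts, was at 10.6 to 17.9 FPKM in PCL and 21.4 to 24 FPKM in β-TCP (limma adjusted p = 0.24). Spp1, osteopontin, was at 5088, 5009 and 3576 FPKM in PCL and 8896, 7613 and 7658 FPKM in β-TCP (limma adjusted p = 0.221). Mgp, an inhibitor of mineral formation, was at 275, 307 and 139 FPKM in PCL and 694, 696 and 682 FPKM in β-TCP (-1.60 ± 0.52 SE, limma adjusted p = 0.144). Vegfa, the angiogenic factor, was at 11.8 to 15.5 FPKM in PCL and 26.6 to 32 FPKM in β-TCP (limma adjusted p = 0.137). Ribosomal protein genes had a median of 0.10 and none of 75 past a threshold.

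Skeletal muscle genes varied within PCL. Their sum was 0.102%, 0.0204% and 0.0697% of all FPKM in PCL 1, 2 and 3 and 0.0208% to 0.0374% in β-TCP, and Mylpf, a fast muscle light chain, was at 89, 1.61 and 77.1 FPKM in PCL and 1.0, 11.5 and 13.6 FPKM in β-TCP. Of the troponin genes, Tnni1, Tnni2 and Tnnc2 overlapped between the groups and had log2 differences of 0.77, 1.57 and 1.71 (limma adjusted p = 0.427, 0.426 and 0.477). Tnnc1 alone of these 4 did not overlap, at 7.39, 10.8 and 17.98 FPKM in PCL and 3.75, 2.79 and 2.36 FPKM in β-TCP (1.65 ± 0.43 SE, limma adjusted p = 0.103).

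**Figure D4:**
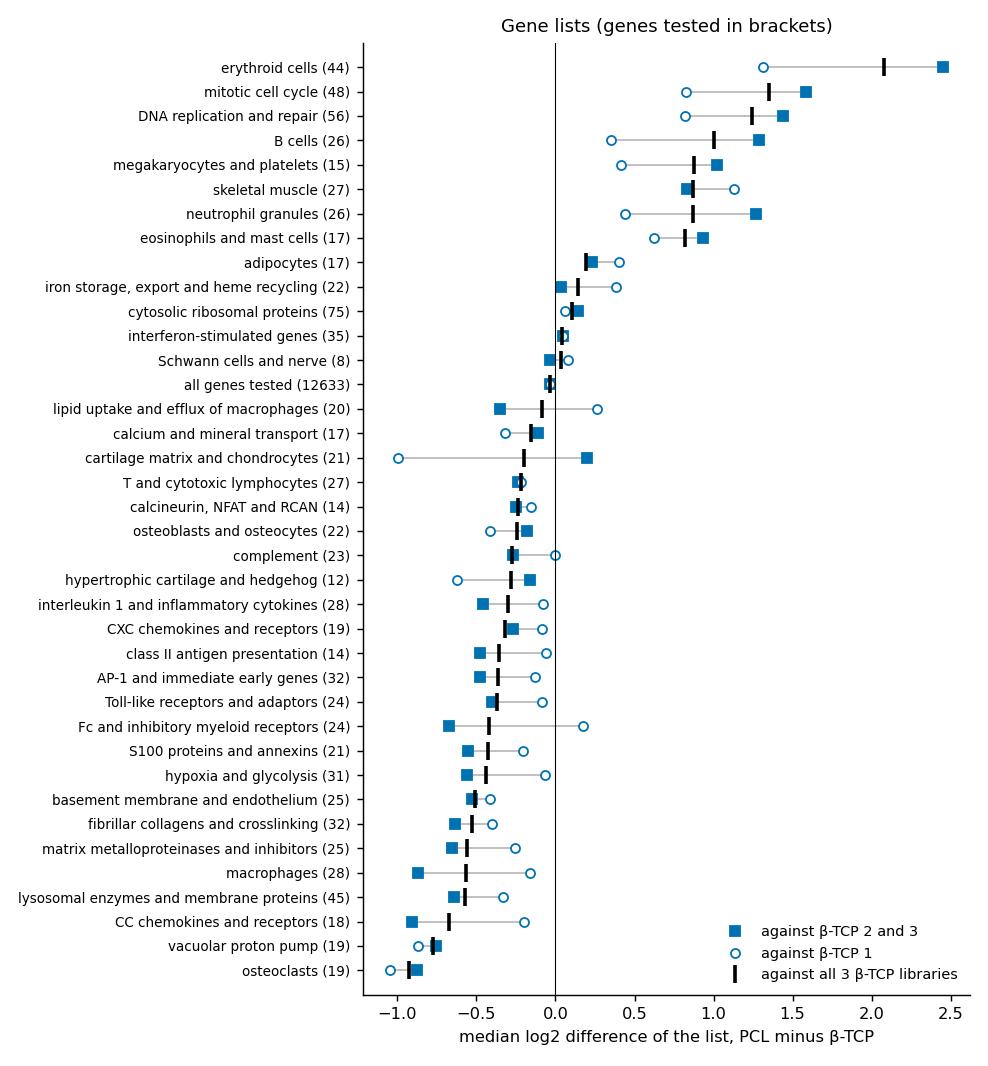
Each row is a gene list with its number of tested genes, and the x axis is the list's median log2 difference, PCL minus β-TCP, against all 3 β-TCP libraries (bar), β-TCP 2 and 3 (filled square) and β-TCP 1 (open circle). The osteoclast and proton pump lists lie at the low end by all 3 marks, -1.04 to -0.75, whereas for macrophages β-TCP 1 gave -0.16 and β-TCP 2 and 3 gave -0.87.

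β-TCP 1 differed from its group in defined sets of genes. It was at least 1 on the log2 scale above the mean of β-TCP 2 and 3 in 151 genes and at least 1 below in 175, whereas β-TCP 2 and 3 were that far apart in 30. By the distance over all tested genes, the root of the summed squared log2 differences, β-TCP 1 was 43.4 from β-TCP 2 and 3, near the 45.1 between PCL libraries. It was 54.8 from PCL, and β-TCP 2 and 3 were 68.4 from PCL. Of 4074 genes in which β-TCP 2 and 3 were above all PCL libraries, β-TCP 1 was also above in 2933, within the PCL range in 950 and below it in 191. Of 3779 genes in which they were below all PCL libraries, β-TCP 1 was also below in 2743, within the range in 911 and above in 125.

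The genes furthest above β-TCP 1 in β-TCP 2 and 3 were Cxcl13, Arg1 and Cxcl3. Arg1, arginase, which competes for the substrate of nitric oxide synthase, was at 104 and 94.8 FPKM in β-TCP 2 and 3 but 2.93 FPKM in β-TCP 1, and at 3.65, 1.87 and 1.6 FPKM in PCL. Cxcl13, the B cell attractant, was at 185 and 178 FPKM in β-TCP 2 and 3, at 2.91 FPKM in β-TCP 1 and at 5.45 to 9.73 FPKM in PCL. Il1b, the inflammatory cytokine interleukin 1 beta, was at 74.8 and 81.9 FPKM in β-TCP 2 and 3, and its 16.2 FPKM in β-TCP 1 lay below the 18.3, 18.4 and 19.9 FPKM of PCL. Cxcl3, a neutrophil attractant, was at 19.3 and 20.4 FPKM in β-TCP 2 and 3 and 0.595 FPKM in β-TCP 1, and Ccl3, a chemokine of macrophages, at 77.2 and 74.2 against 9.21 FPKM. The log2 difference between PCL and β-TCP was thus -4.94 for Arg1 against β-TCP 2 and 3 and -0.27 against β-TCP 1, and for Il1b it was -1.998 and 0.21. None of these 5 passed the adjusted p, which was 0.132 for Arg1 and 0.286 for Il1b (limma). Il1r1, the receptor of interleukin 1, was at 10.3 FPKM in both β-TCP 2 and 3, at 5.36 FPKM in β-TCP 1 and at 3.36 to 5.59 FPKM in PCL. Il1a and Il10 were below the filter on low values and were not tested, with 3.78 and 3.99 FPKM for Il1a and 1.78 and 2.17 FPKM for Il10 in β-TCP 2 and 3, and at most 0.319 FPKM in β-TCP 1 and PCL for either gene. Apoe, the lipid carrier that macrophages secrete, was at 5814 and 5800 FPKM in β-TCP 2 and 3 and 1948 FPKM in β-TCP 1, against 2031 to 3046 FPKM in PCL.

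Among the genes high in β-TCP 1 alone were many of cartilage. The cartilage collagen Col2a1 reached 526 FPKM in β-TCP 1 and at 46.7 and 46.5 FPKM in β-TCP 2 and 3, and PCL was at 166, 116 and 26.3 FPKM. Col10a1, the collagen of hypertrophic chondrocytes, was at 71.1 FPKM against 10.6 FPKM in both others and 4.44 to 17.5 FPKM in PCL. The median log2 difference of the 21 cartilage genes was -0.998 against β-TCP 1 and 0.20 against β-TCP 2 and 3, so PCL was lower or higher according to the β-TCP library it was set against. The summed list made up 0.0493% to 0.134% of all FPKM in PCL, 0.267% in β-TCP 1 and 0.0882% and 0.0873% in β-TCP 2 and 3, and the 3 Control libraries were above all of these. Romo1, a small mitochondrial membrane protein, was at 56.8 FPKM in β-TCP 1 and at most 1.04 FPKM in the 5 other scaffold libraries compared. Sox9, the transcription factor of chondrocytes, was at 0.764 to 1.62 FPKM in the 6 libraries with no separation, Ihh, a hedgehog ligand of growth cartilage, at 4.53 FPKM in β-TCP 1 and 0.133 to 1.08 FPKM in the others, and Pth1r, the receptor of parathyroid hormone, at 15.9 to 29.5 FPKM. Cxcl12, a chemokine of marrow stroma, overlapped between groups at 181 to 271 FPKM in PCL and 154 to 183 FPKM in β-TCP.

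**Figure D5:**
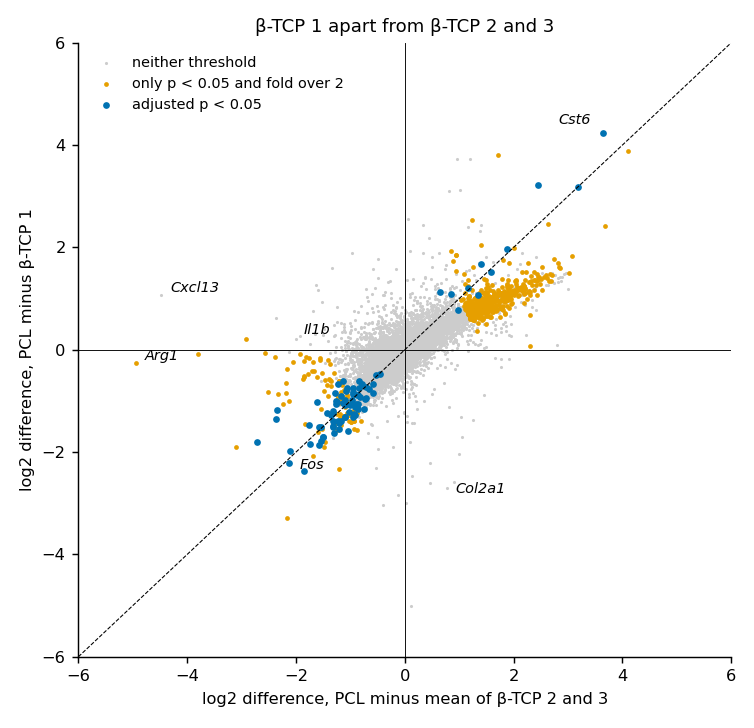
Each point is a gene, with the log2 difference of PCL from the mean of β-TCP 2 and 3 on the x axis and from β-TCP 1 on the y axis, and the dashed line is equality. Genes at an adjusted p under 0.05 (blue) have the same sign on both axes, as their PCL and β-TCP libraries do not overlap. Some lie off the line, such as Vsig4 at -2.36 on the x axis and -1.17 on the y axis. Most orange genes on the right lie below the line, and Arg1, Cxcl13 and Il1b on the left lie near or above 0 on the y axis.

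Of the 72 genes lower in PCL at the adjusted p, the difference was larger against β-TCP 1 in 41, and of the 11 higher at the adjusted p in 7. Of the 422 genes higher in PCL at the study's threshold, the difference was smaller against β-TCP 1 in 402, although β-TCP 1 was still below all PCL libraries in 418. Of the 144 lower at that threshold, it was smaller in 82, and β-TCP 1 was above all PCL libraries in 132.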

How the data were processed

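The libraries were bulk RNA of rat bone defect tissue. The authors deposited FPKM values, made with Trimmomatic (trimming), HISAT2 (mapping) and Cufflinks (quantification), and the submitters' processing notes name Rnor_6.0. The labels and the study's methods name different extraction kits, library kits and sequencers. The deposited FPKM table holds 22601 genes, and 3 value columns that match no sample label were not used. Genes with FPKM of at least 1 in at least 3 of the 12 libraries were tested in R 4.3.3 by limma 3.58.1, its variance trend switched on. The 4 group means were estimated together from log2(FPKM + 1) of the 12 libraries, and two-sided p-values were adjusted after Benjamini and Hochberg. Fold changes on this scale understate those of low genes. For each of the 18684 genes above 0, dividing FPKM by a step fitted per gene and scaled by the relative depth of each library gave whole numbers (tolerance 0.01), taken as fragments. The fit was tested on simulated data.

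Genes and 37 lists were chosen with earlier results of these data known. Of 1040 list symbols, 1023 matched by name and 9 by synonym. Named genes were the 15 lower and up to 15 higher genes with a symbol of their own and the largest change at the adjusted p without overlap, up to 3 per list at the adjusted p or else its 2 highest, and genes that the study names. The others (Msr1, Mki67, Cdk1, Klf1, Alas2, Alox15, Olfm4, Erfe, Sctr, Mgp, Romo1, Ctsk, Acp5, Tnfrsf11a, Atp6v0d2, Atp6v1e1, Bmp2, Porcn, Icam1, Gdf15, Insig1, Spry4, Etv4, Adgre1, Cd68, Cxcl13, Cxcl3, Ccl3, Ccl7, Cdc20, Rcan1, Car2, LOC108352087 and RGD1562156) were chosen after their values were seen. Promoters came from RefSeq GRCr8, and coordinates of the files' build were not used here. Alternatives were other pseudocounts, filters and scalings, other fits, and each library left out.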

Additional observations from a re-analysis of the deposited data

How the results depend on the processing

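No replicate pairing was found: deviations from the group means of same-numbered PCL and β-TCP libraries correlated at -0.211, 0.0516 and -0.227. A fit with the replicate number as a block gave 45 genes at the adjusted p and 501 at the study's threshold, against 83 and 566. The adjusted p count was 38 and 53 with pseudocounts of 0.1 and 0.5, 94 without a filter, 42 with a filter at 5 FPKM, 50 with median-of-ratios scaling, 73 with quantile normalization, 60 with erythroid genes left out of the total, 83 with muscle left out, 81 without the trend and 45 by limma-voom on recovered fragments. It was 2189 in a fit of only the 6 PCL and β-TCP libraries and 6859 with weights per library, whose estimate did not converge, and 2 with β-TCP 2 and 3 averaged or with β-TCP 1 alone. Leaving out single libraries gave 2 to 1912 genes at the adjusted p, the highest without Control 3, and 179 to 717 at the study's threshold. That threshold otherwise gave 319 averaged, 180 with β-TCP 1 alone, and 487 to 749 in the settings other than these. The cause of these changes was not tested. The sign of the log2 difference turned against β-TCP 1 alone for Apoe (0.273), Ccl3 (1.27), Cxcl13 (1.061), Fcer1g (0.0329), Fth1 (0.527), Gapdh (0.196), Ibsp (-0.457), Il1b (0.209), Pf4 (0.523), Sox9 (-0.0858), Tpm2 (0.0586) and Unc93b1 (0.149). With averaging it turned for Fth1 (0.0163) and Ibsp (-0.0914), with quantile normalization for Ibsp (-0.0675) and Rps29 (-0.0182), and without erythroid genes in the total for Rpl41 (0.0117). With weights per library it turned for Cd72 (-0.0778), Col10a1 (0.223), Col11a1 (0.190), Col2a1 (0.922), Ftl1 (-0.00408), Mylpf (-1.45), Pmp22 (-0.0734), Pth1r (0.0813), Tnnc2 (-1.22), Tnni1 (-0.471) and Tnni2 (-0.708). With 1 library left out, the range crossed 0 for Col11a1 (-0.258 to 0.0893, above 0 without PCL 3 or β-TCP 1), Col2a1 (-0.964 to 0.772, above 0 without PCL 3 or β-TCP 1), Fth1 (-0.494 to 0.017, above 0 without β-TCP 2 or 3), Ftl1 (-0.0326 to 0.198, below 0 without β-TCP 1), Ibsp (-0.163 to 0.274, below 0 without PCL 2, β-TCP 2 or 3) and Pmp22 (-0.183 to 0.351, below 0 without PCL 1 or β-TCP 1). None of these genes passed the adjusted p. The 83 genes kept their direction in every setting in which they were tested. Where libraries were only left out or averaged, the lack of overlap fixed this in advance. There were 3 libraries per group, 2 of the β-TCP ones nearly alike, and the spread was shared with groups that vary more. Differences may thus have gone undetected, large ones included, such as Alox15 (log2 difference 3.25, limma adjusted p = 0.156). The smallest log2 difference that passed the adjusted p was 0.461 in size.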
